A study of Mus musculus with 4 samples.

Results

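Of the 10490 RUNX1 peaks that lay on chromosomes 1 to 19 and X, 335 (3.19%) had their midpoint inside an exon and more than 1 kb from every transcription start site (TSS). Exons and TSSs were those of the curated RefSeq transcripts of the mouse assembly mm10, so the choice used position alone and no measured value. The 335 peaks lay in exons of 325 genes, which were 1.42% of the 22893 genes with exon sequence more than 1 kb from a TSS. They came from 1 list, called by the authors on chromatin of whole ovaries from CD1 mouse embryos at E14.5. The XX gonads were separated from the mesonephros and pooled, 80 to 100 ovaries for each chromatin immunoprecipitation (ChIP) by the sample labels, while the study's methods state a larger pool, and 20 to 30 µg of chromatin was precipitated with 10 µl of an antibody to RUNX1. There were 2 RUNX1 ChIP and 2 input samples. Reads of the replicates were merged before peaks were called, so every peak had 1 fold and 1 p-value and no value for each replicate. No test between samples was therefore possible, and since peaks are not replicates, the shares below carry exact binomial 95% intervals that cover counting error only. A peak list holds no expression values, so the tissue could not be checked against marker genes, and the pooled ovaries held all cell types of the gonad.

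RUNX1 is a transcription factor that binds DNA through its Runt domain, together with its partner CBFB, at a short core sequence. In the fetal ovary it is made by pre-granulosa cells, the supporting cells that later surround the oocyte. Most bound sites of such factors are mapped at promoters, introns and intergenic enhancers. Exons differ from these because they are constrained by the protein code, and because most are poor in CpG dinucleotides, apart from exons that run through CpG islands at genes of developmental regulators.

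The core searched was TGCGGT or TGTGGT on either strand. The 9 stretches of 30 bases that follow show it in peaks centred on coding exons, where the core nearest to the peak midpoint was itself in coding sequence. They were taken in order of fold from such peaks among the 15 strongest peaks, the 6 genes with the most peaks and the gene lists described below, so most coding peaks with a core are not shown. They are read from GRCm38, the same assembly as mm10, and have the core in capitals. Each is written 5' to 3' on the strand that reads the core.
Arhgef17 (chr7:100931057-100931086, forward strand): cgggccccggccTGCGGTtgggagaagcta
Fam193a (chr5:34466141-34466170, reverse strand): gagctgtacctcTGTGGTtttgggaggctc
Sptbn4 (chr7:27361568-27361597, forward strand): ggttggacgactTGCGGTtagcgtcgagct
Prr36 (chr8:4213296-4213325, reverse strand): acagattcccctTGTGGTtttacctacttt
Lor (chr3:92081057-92081086, reverse strand): ggaggctccagcTGCGGTggcggctactcc
Cdk17 (chr10:93228704-93228733, reverse strand): atgaggaggttcTGTGGTttcaagtcccgg
Otud7a (chr7:63758373-63758402, forward strand): agaaccgctcgcTGTGGTcgcagagctaca
Ccdc177 (chr12:80758472-80758501, forward strand): gggcggcgatctTGCGGTcgcgctcgggta
Dchs1 (chr7:105762399-105762428, forward strand): taacagcgcaggTGTGGTctctcgatccag
The form TGCGGT stood in 4 of these stretches and TGTGGT in the other 5, and 6 of the cores were within 50 bp of the midpoint. Cores that lay in the sequence flanking the exon, such as those at Dgkh and Itga2b, are not shown either. Over the 136 exonic peaks with a core, the core nearest to the midpoint lay in an exon in 120 (88.2%, interval 81.6 to 93.1), and 86.2% of the bases of these peaks were exonic.

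A pair of whole peaks show the range of base composition. Both lay entirely in coding sequence, and they were the strongest such peaks with and without the composition of a CpG island. The sequences are on the forward strand and the capitals mark each CpG.
Arhgef17 (chr7:100930935-100931234, forward strand): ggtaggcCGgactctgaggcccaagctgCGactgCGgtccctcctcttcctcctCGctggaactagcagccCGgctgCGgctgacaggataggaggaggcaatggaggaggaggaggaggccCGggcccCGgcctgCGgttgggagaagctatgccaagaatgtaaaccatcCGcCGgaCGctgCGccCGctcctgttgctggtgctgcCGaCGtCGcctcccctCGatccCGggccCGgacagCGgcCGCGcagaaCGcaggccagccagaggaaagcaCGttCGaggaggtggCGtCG
Fam193a (chr5:34466111-34466410, forward strand): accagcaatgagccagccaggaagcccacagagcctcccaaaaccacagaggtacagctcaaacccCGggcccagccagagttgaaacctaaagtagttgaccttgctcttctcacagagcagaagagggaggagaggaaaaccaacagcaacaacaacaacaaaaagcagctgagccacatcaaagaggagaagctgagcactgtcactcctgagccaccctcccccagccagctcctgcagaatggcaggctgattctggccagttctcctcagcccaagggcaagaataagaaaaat
The Arhgef17 peak held 28 CpGs, with an observed to expected ratio of 0.80, while the Fam193a peak held 1, with a ratio of 0.048. Their GC contents were 68.3% and 53.3%, and their folds were 31.81 and 25.3.

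The exonic peaks were weaker than the list as a whole. Fold here is the enrichment that the authors' peak caller gave for a peak. It ran from 4.04 to 31.81 in the exonic peaks, with a median of 5.55 (interval 5.31 to 5.82) and quartiles of 4.69 and 7.18. The median over all peaks was 6.41 (6.35 to 6.48). Exonic peaks within 1 kb of a TSS had a median fold of 6.29 (6.17 to 6.4), and the medians of the other location classes ran from 6.17 in distal intergenic to 6.85 in non-exonic peaks 1 to 10 kb from a TSS. Of the 335 exonic peaks, 69 (20.6%, interval 16.4 to 25.3) had a fold of 8 or more, against 32.1% of all peaks. The p-value of the caller ordered the classes otherwise. It was under 1e-20 in 77 exonic peaks (23.0%, interval 18.6 to 27.9), in 33.6% of all peaks, in 17.5% of distal intronic and in 20.7% of distal intergenic peaks. The curves of fold by location show the exonic peaks below the other classes from a fold of 4 upward over most of the range.

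**Figure D1:**
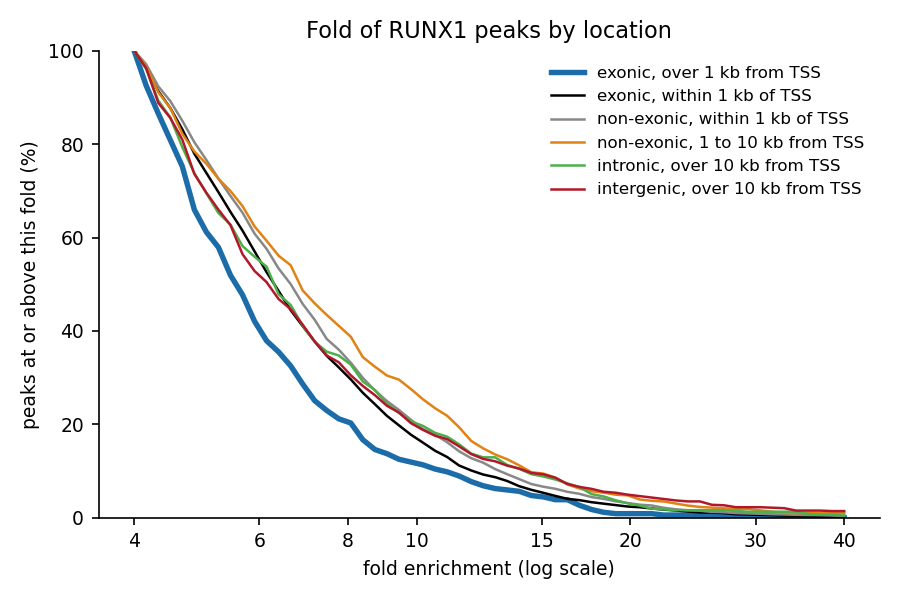
Share of peaks (%, y axis) at or above each fold enrichment (x axis, log scale) for 6 location classes of RUNX1 peaks. The thick line holds the 335 exonic peaks over 1 kb from a TSS, of which 20.6% reached a fold of 8, against 30.2% of the 3884 exonic peaks within 1 kb of a TSS and 38.8% of the 686 non-exonic peaks 1 to 10 kb away.

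Exon sequence more than 1 kb from TSSs came to 61.0 Mb and held 5.49 peaks per Mb. Non-exonic sequence beyond the same limit of 1 kb held 0.898 peaks per Mb, and sequence within 1 kb of a TSS held 146.6. The non-exonic sequence was not matched to the exons for distance beyond that limit, base composition or repeated sequence. The densities are therefore not a like comparison. The density differed between kinds of exon. Coding sequence held 8.82 peaks per Mb, 5' untranslated region (UTR) 15.5, exons of noncoding RNAs 2.87 and 3' UTR 1.68. Coding sequence accordingly held 268 of the exonic peaks (80.0%, interval 75.3 to 84.2) against 49.8% of windows of the same width placed on every 300th base of the same exon sequence. The 3' UTRs held 42 peaks (12.5%, interval 9.19 to 16.6) against 41.0% of windows, noncoding RNA exons held 14 (4.18% against 8.02%) and 5' UTRs held 11 (3.28% against 1.19%).

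**Figure D2:**
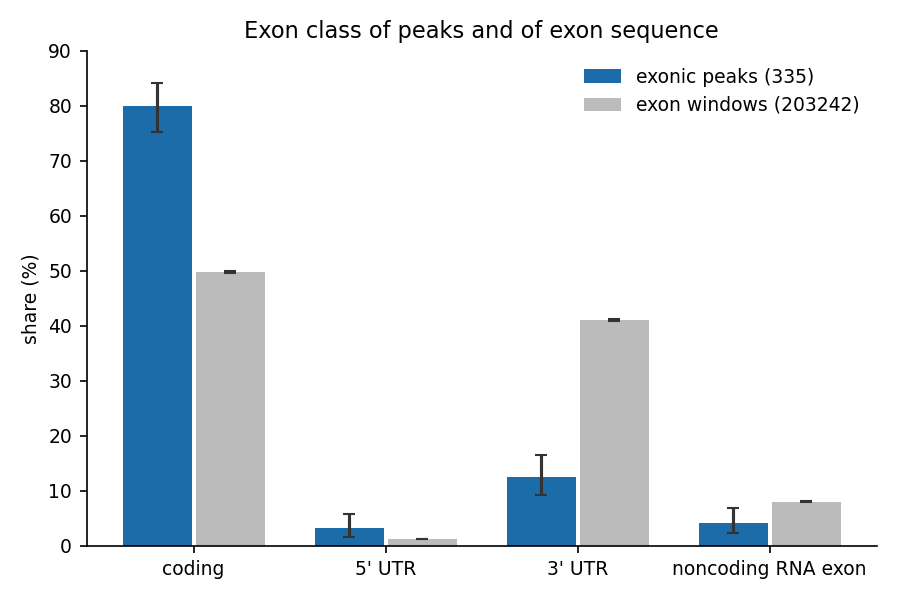
Share (%, y axis) of the 335 exonic RUNX1 peaks and of 203242 exon windows in each exon class, with exact binomial 95% intervals. Coding sequence held 80.0% of peaks and 49.8% of windows, and 3' UTRs held 12.5% of peaks and 41.0% of windows.

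The last exon of a transcript held 154 of the peaks (46.0% against 55.1% of windows) and internal exons held 141 (42.1% against 41.8%). First exons held 20 (5.97% against 0.71% of windows) and genes with a single exon another 20 (5.97% against 2.39%). The 20 peaks in single-exon genes had a median fold of 6.32 (interval 5.70 to 9.02) and those in first exons 6.52 (5.25 to 7.4), while internal exons had 5.32 (5.02 to 5.86) and last exons 5.55 (5.27 to 5.79). These intervals overlapped. In 226 peaks (67.5% against 53.1% of windows) all 300 bp were exonic, and in 146 all were coding. The exon that held the midpoint had a median length of 1190 bp, against 1204 bp for windows.

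The peaks lay a median of 5474 bp from the nearest TSS (quartiles 2088.5 and 12661 bp), nearer than the windows, whose median was 14325 bp. Per 1000 windows there were 6.33 peaks at 1 to 2 kb from a TSS, 2.64 at 2 to 5 kb, 1.95 at 5 to 10 kb, 1.10 at 10 to 20 kb and 0.71 beyond 20 kb. The median fold in these intervals was 6.24, 5.86, 5.14, 5.55 and 5.02. At the limit of the rule, the nearest peaks counted were those of Crybg1 and Crct1 at 1015 bp (folds 10.74 and 10.18) and Fbll1 at 1024 bp (4.26). The nearest exonic peaks not counted were Hspb7 at 998 bp (4.63), Pik3ip1 at 991 bp (14.19) and C030034I22Rik at 986 bp (16.2). The farthest lay in coding exons of Thsd7b, 204704 bp from the nearest curated TSS and 22140 bp from the nearest GENCODE TSS (fold 13.88), of Akap6, an anchoring protein for protein kinase A, at 187690 bp (5.29), and of Klhl32 at 153581 bp (11.11). Otud7a, which encodes a deubiquitinase, held the next pair, at 138666 and 137938 bp, both in its last exon, with folds of 4.11 and 12.65. These lay 3006 and 3734 bp from a GENCODE TSS.

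**Figure D3:**
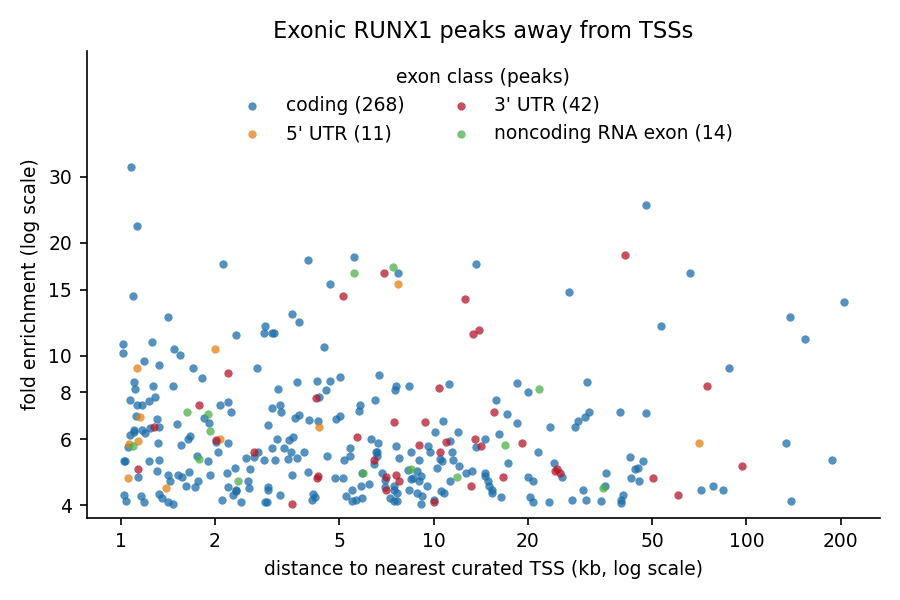
Fold enrichment (y axis, log scale) of each of the 335 exonic RUNX1 peaks against the distance from its midpoint to the nearest curated TSS (x axis, kb, log scale), coloured by exon class. Most points lie below a fold of 8, and the 69 at or above it include peaks at 1077 bp (31.81) and at 47719 bp (25.3).

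Curated TSSs are not all TSSs. Of the 335 peaks, 29 (8.66%, interval 5.87 to 12.2) were within 1 kb of the TSS of a predicted RefSeq transcript, against 2.19% of windows, and 101 (30.1%, interval 25.3 to 35.4) were within 1 kb of a TSS in the GENCODE annotation of the same assembly, against 13.1% of windows. The 29 included Rusc1 (fold 22.21), Dgkh (16.66) and Hoxb5os (16.66). The 101 had a median fold of 5.92 (5.55 to 6.33). The nearest TSS was that of the host gene for 217 peaks (64.8%), and 89 (26.6%) lay within 10 kb upstream of the TSS of a different gene. Another peak lay within 1 kb of 21 of the 335 peaks (6.27%). No share of windows was computed for these counts, so they do not set the peaks apart from other exon sequence.

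In base composition the exonic peaks stood far from exon sequence at large and lay between distal peaks and those near a TSS. Their GC content averaged 64.5% (SD 7.35, n = 335), against 46.6% (SD 8.71) in exon windows, 68.2% in exonic peaks within 1 kb of a TSS and 52.8% in distal intronic peaks. They held 23.9 CpGs on average, against 4.88 in windows. The composition of a CpG island, here a GC content of at least 50% and an observed to expected CpG ratio of at least 0.6 over the 300 bp, was met by 225 peaks (67.2%, interval 61.9 to 72.2) and by 2.81% of windows, by 94.7% of exonic and 88.2% of non-exonic peaks within 1 kb of a TSS, and by 12.1% of distal intronic peaks. In coding sequence 200 of 268 peaks (74.6%) met it against 4.87% of coding windows. In 3' UTRs it was 7 of 42 (16.7%, interval 6.97 to 31.4), in 5' UTRs 8 of 11 and in noncoding RNA exons 10 of 14. Of the 20 single-exon peaks 18 met it.

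**Figure D4:**
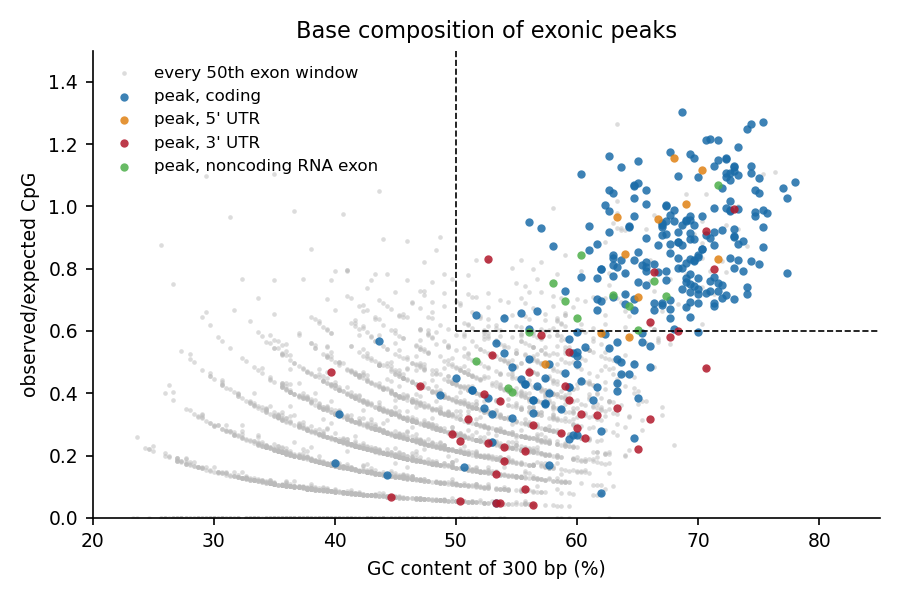
Observed to expected CpG ratio (y axis) against GC content (x axis, %) over 300 bp, for the 335 exonic RUNX1 peaks coloured by exon class and for every 50th exon window in grey. Dashed lines mark the limits of CpG-island composition, which 67.2% of peaks and 2.81% of all windows met, and most 3' UTR peaks lie below the ratio of 0.6.

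The share with CpG-island composition was lower farther from the TSS. It was 88.5% of the 78 peaks at 1 to 2 kb, 80.2% of 81 at 2 to 5 kb, 64.8% of 71 at 5 to 10 kb, 43.8% of 48 at 10 to 20 kb and 42.1% of 57 beyond 20 kb. The corresponding shares of windows were 9.48%, 3.95%, 2.68%, 2.07% and 1.82%. Per 1000 windows of that composition there were 59.1, 53.5, 47.1, 23.3 and 16.5 peaks of the same composition in the same intervals. The number of peaks per 1000 windows was higher at higher GC content, from 0.826 at 50 to 55% GC to 52.8 at 65 to 70%. It was 146.4 at 70 to 75% and 80.0 in the 150 windows at 75 to 80%.

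A RUNX core was present in 136 exonic peaks (40.6%, interval 35.3 to 46.1). The share was 24.1% in exon windows, 32.7% (31.2 to 34.2) in exonic peaks within 1 kb of a TSS and 39.9% in all peaks. In non-exonic peaks it was 35.5% (34.0 to 37.0) within 1 kb of a TSS, 53.8% at 1 to 10 kb, 64.8% (60.8 to 68.5) in distal intronic and 61.5% in distal intergenic peaks. Of the exonic peaks, 112 held 1 core, 24 held more, and 199 held none. The core lay within 50 bp of the midpoint in 79 of the 136 (58.1%, interval 49.3 to 66.5), against 38.8% of the core-bearing windows and 55.7% of all core-bearing peaks. Peaks with a core had a median fold of 5.86 (5.31 to 6.48) and those without 5.40 (5.25 to 5.71). Over the quartiles of fold, from lowest to highest, the share with a core was 44.0% (37 of 84, interval 33.2 to 55.3), 30.3% (27 of 89, 21.0 to 41.0), 34.6% (27 of 78, 24.2 to 46.2) and 53.6% (45 of 84, 42.4 to 64.5), so it did not rise steadily with fold.

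The core forms were distributed differently. TGCGGT, the form that holds a CpG, was in 78 exonic peaks (23.3%, interval 18.9 to 28.2) and in 3.86% of exon windows. TGTGGT was in 70 (20.9%, interval 16.7 to 25.7) and in 21.0% of windows. Windows were then weighted to the GC content of the peaks in steps of 5 percentage points. The peaks held TGCGGT 2.12 times and TGTGGT 1.33 times as often as the weighted windows, and either form 1.61 times as often. The shuffled cores GTGTCG or GTGTTG gave 0.823 times and TGCGTG or TGTGTG gave 1.03 times. Weighting by GC content did not match CpG content. At 60 to 65% GC the observed to expected CpG ratio was 0.687 in peaks and 0.400 in windows. At 65 to 70% it was 0.824 and 0.606, and at 70 to 75% 0.929 and 0.851. Each shuffled pair pools a form with a CpG and a form without, so it is no control for the CpG in TGCGGT. The part of CpG content in the TGCGGT figure was not tested. Among the 225 peaks of CpG-island composition the ratio to weighted windows of like composition was 1.66 for TGCGGT and 1.06 for TGTGGT. Among the other 110 peaks it was 2.88 and 1.85. In these 110 peaks TGTGGT was in 43 (39.1%, interval 29.9 to 48.9) and TGCGGT in 20 (18.2%, 11.5 to 26.7), whereas in the 225 it was in 27 (12%, 8.06 to 17.0) and TGCGGT in 58 (25.8%, 20.2 to 32.0).

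**Figure D5:**
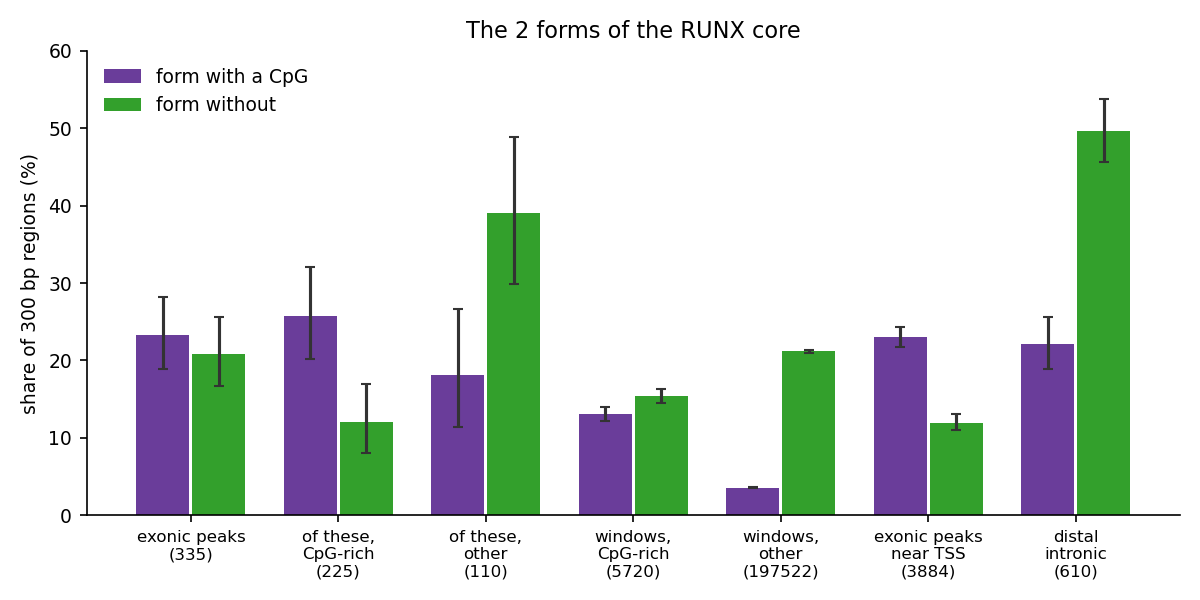
Share (%, y axis) of 300 bp regions with the core form that holds a CpG (purple) and the form that does not (green), with exact binomial 95% intervals, in the 335 exonic peaks, their 2 composition groups, exon windows of each composition, exonic peaks near a TSS and distal intronic peaks. The form without a CpG was in 39.1% of the 110 exonic peaks lacking CpG-island composition and in 12% of the other 225.

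Among 3' UTR peaks, which mostly lacked CpG-island composition, TGTGGT was the more frequent form. A core was in 19 of 42 (45.2%, interval 29.9 to 61.3), 17 of them with TGTGGT and 3 with TGCGGT, and in 16 the core was within 50 bp of the midpoint. In coding sequence a core was in 107 of 268 peaks (39.9%), TGCGGT in 69 and TGTGGT in 47. These were 25.7% for TGCGGT, against 5.10% of coding windows, and 17.5% (interval 13.2 to 22.6) for TGTGGT, against 21.3%. Counts were small in 5' UTRs (3 of 11) and noncoding RNA exons (7 of 14).

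Other consensus sites were searched on both strands, and no motif searched held another. The ETS site CCGGAAGT was in 5 exonic peaks (1.49%, interval 0.486 to 3.45), against 6.87% (6.10 to 7.72) of exonic peaks within 1 kb of a TSS and 0.501% of windows. The CTCF consensus was in 8 (2.39%, interval 1.04 to 4.65), against 0.438% (0.255 to 0.700) of exonic peaks near a TSS, 4.10% of distal intronic peaks and 0.257% of windows. These 8 peaks were in H2-DMa, Efr3b, Mroh6, Nsmce1, Vsig10l, Fgfr1, Aak1 and Kcnj10, which were named after their values were seen, and their folds ran from 4.11 to 15.52. The forkhead site TATTTAC or TGTTTAC was in 8 exonic peaks (2.39%) and in 8.39% of windows. NR5A sites CAAGGCCA or CAAGGTCA were in 3.88% and 4.53%, TEAD sites AGGAATG or GGGAATG in 6.57% and 10.1%, the NFY site CCAAT in 17.6% and 33.8%, and GATA sites AGATAA or TGATAA in 5.97% and 24.8%. Forkhead sites were 0.335 times as frequent as in windows of like composition among peaks of CpG-island composition, and 0.638 times among the others. The same ratios were 0.742 and 0.979 for TEAD, 0.656 and 0.771 for NFY and 0.275 and 0.539 for GATA. For NR5A they were 0.498 and 1.80, below and above windows. The 1.80 rests on 9 of 110 peaks (8.18%, interval 3.81 to 14.96), and that interval covers the 4.55% of windows. For ETS they were 0.620 and 5.76, from 2 and 3 peaks, and for CTCF 2.82 and 18.1, from 3 and 5 peaks. Against windows weighted by GC content, ETS sites were 2.02 times and CTCF sites 4.56 times as frequent in all 335 exonic peaks. The lower shares of the forkhead, TEAD, NFY and GATA sites stand beside the higher GC content of the peaks, whose part in them was not tested.

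The 15 exonic peaks of highest fold ran from 15.52 to 31.81, and 10 were coding, 12 held a core and 7 had CpG-island composition. The strongest lay in the first of 21 exons of Arhgef17, which encodes a guanine nucleotide exchange factor, 1077 bp from its TSS, with 2 cores of the form TGCGGT. The second lay in exon 19 of 21 of Fam193a (25.3), 47719 bp from the nearest curated TSS, which is that of Tnip2, and 131 bp from a GENCODE TSS. Rusc1, an adaptor protein, had a fold of 22.21 and no core. Coding exons of Sptbn4, the beta-IV spectrin of axon initial segments, Prr36, Cyp4f37, a cytochrome P450, and Lor, the loricrin of the epidermal cornified envelope, had 18.28, 18.05, 17.59 and 17.59. Cdk17, a cyclin-dependent kinase, and Dgkh, a diacylglycerol kinase, both had 16.66.

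In the 3' UTRs the peaks of highest fold reported were in Dlgap3, a postsynaptic scaffold (16.66), and Usb1, an exonuclease of U6 small nuclear RNA (14.47). In the 5' UTRs they were in H2-DMa, which loads peptides on class II histocompatibility molecules (15.52), Nup160 of the nuclear pore (10.43) and Cbln4, a cerebellin (9.26). In noncoding RNAs they were in Gm36897 (17.28), Hoxb5os, transcribed at the Hoxb cluster (16.66), and 4930550C17Rik (8.15).

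There were 12 genes with a pair of such peaks each, and 2 peaks lay in exons of a pair of overlapping genes. By highest fold the first 6 were Exoc3l2 (14.19 in the last exon and 6.71), Otud7a, Soga3 (12.34 and 5.29), Itga2b, the platelet integrin alpha IIb (8.33 and 4.26), Prdm13, a zinc finger factor of neural progenitors (8.33 and 6.02), and Ccdc177 (7.52 and 5.99). None of these 6 had a peak within 1 kb of its own TSS. Of all 325 host genes, 110 (33.8%) had one, against 36.3% of the 22893 genes. In these 110 genes the median fold of the strongest peak at the TSS was 7.485 and that of the strongest exonic peak 5.405, and in 36 the exonic peak was the stronger.

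Of 24 genes of pre-granulosa cells and the ovary pathway, 3 (12.5%) held an exonic peak, beside 1.42% of all genes. They were Foxl2, the forkhead factor of granulosa cells, with a fold of 6.48 at the junction of coding sequence and 3' UTR, 1276 bp from its TSS, Bmp2, a BMP ligand, with 6.88 in its 5' UTR, and Runx1 itself, with 5.76 in its last exon, 9568 bp from the nearest TSS, that of Gm30224. The Foxl2 and Runx1 peaks held no core and the Bmp2 peak held 1. All 3 folds were below 8. Each of these genes also had a stronger peak within 1 kb of its own TSS. Those folds were 9.05 in Foxl2, 7.59 in Bmp2 and 11.11 in Runx1. Of 23 genes of Sertoli cells and the testis pathway, 1 held such a peak, Amh, which encodes anti-Müllerian hormone, with a fold of 4.86 in its last exon and no core. Of 24 germ cell genes, 1 held one, Prdm14, a regulator of germ cell specification (4.04). No steroidogenic gene of 14 held one. Foxl2, Runx1 and Amh are also named in the study's Results. The gene lists were written with earlier results of these data known. The 12.5% of the pre-granulosa and ovary list and the 1.42% beside it were not matched for base composition.

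Among transcription factor families, 3 of 43 forkhead genes held an exonic peak, Foxb2 (10.88), Foxq1 (9.26) and Foxl2, all single-exon genes. Of 19 SOX genes 2 did, Sox1 of neural progenitors (10.05) and Sox17 of endoderm and endothelium (6.79), and of 38 Hox cluster genes 2 did, Hoxd3 (7.4) and Hoxd4 (4.81). Of 44 BTB zinc finger genes 1 did, Zbtb7b, a factor of T helper cells (5.79), and of 23 RUNX family genes and cofactors 1 did, Runx1. Genes with homeobox in their product name, a family chosen after the host genes were seen, held a peak in 18 of 220 (8.18%), against 310 of 19428 protein-coding genes (1.6%). They included Barhl2 and Otp (both 8.1), Hmx1 (7.24) and Nkx2-1 (7.07), and all 18 of their peaks had CpG-island composition. Exon windows of homeobox genes had that composition in 15.4% against 2.95% for all protein-coding genes, and per 1000 such windows there were 85.3 peaks against 39.0. Potassium channel and related genes held a peak in 7 of 118 (5.93%, 93.0 peaks per 1000 such windows) and zinc finger genes in 15 of 673 (2.23%, 31.7). Genes with forkhead box in their product name held a peak in 3 of 44 (6.82%, 47.6). CpG-island composition was met by 16.3% of exon windows of these forkhead genes. The rates rest on few peaks of that composition, 18 in 211 such windows for homeobox genes and 8 in 86 for potassium channel genes. Zinc finger genes had 11 in 347 and forkhead genes 3 in 63. The families were not matched for distance from a TSS. Over all exon windows of that composition the rate was 59.1 at 1 to 2 kb and 16.5 beyond 20 kb.

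In signalling pathways, 3 of 33 WNT pathway genes, a list that left out the WNT ligands, held an exonic peak, the receptors Fzd7 (4.51) and Fzd1 (4.19) in their single exons and Dvl3, a dishevelled protein (4.4). The ligand genes Wnt10a (8.39) and Wnt6 (4.11), outside the list and named after their values were seen, also held one. In the Hippo pathway 2 of 25 did, Dchs1, a large protocadherin (6.25, with a TGTGGT core in coding exon 10), and Sav1, the salvador scaffold (5.55). In the TGF-beta and BMP pathway 2 of 34 did, Bmp2 and the activin receptor Acvr1b (4.07 in the 3' UTR), and in the Notch pathway 1 of 23, the receptor Notch4 (4.36). Outside these lists, the BMP-family ligand Gdf6 (4.32) and the collagen Col6a4 (6.17), also named after their values were seen, held one. Among SWI/SNF remodellers 2 of 24 did, Bicra (5.02) and Arid2 (4.4). Several of these genes also had a stronger peak within 1 kb of their own TSS. Those folds were 33.32 in Sav1, 20.36 in Arid2, 17.03 in Wnt6, 9.79 in Acvr1b, 5.67 in Fzd1 and 5.35 in Dvl3. In Dchs1 the peak at the TSS was the weaker (5.97). Fzd7, Wnt10a, Notch4, Gdf6, Col6a4 and Bicra had no peak there. No exonic peak was found in the 20 genes of KMT2 and SET1 complexes, the 29 of Polycomb and BCOR, the 42 listed collagens and laminins or the 40 cytosolic ribosomal proteins with exon sequence away from TSSs. With lists of 14 to 44 genes and a background of 1.42%, a count of 0 or 1 does not set a list apart. Counts of 2 or 3 were not tested, and they come from many lists. The background was not matched for base composition.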

How the data were processed

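RUNX1 ChIP-seq and input were measured in 2 samples each, and the only file analysed was the peak list that the authors made from both RUNX1 replicates. By the labels and methods, single-end reads were mapped to mm10 at unique positions (Bowtie 1.2), duplicates were removed (Picard 1.110), replicates were merged, peaks were called (HOMER 4.9), reset to 300 bp and kept where enriched over input and over the local background. Bedtools 2.24.0 is also named in the submitters' notes. The deposited fold is a ratio from the peak caller, and the deposited p-value is from the same output. Both were used only to describe peaks. Read depth is not in the list. Merging leaves no error for a single peak, and mapping at unique positions leaves out repeated sequence.

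Of 10494 peaks, 4 on other sequence were left out. Midpoints were placed on 45657 curated RefSeq transcripts of 26089 genes (GRCm38, the same assembly as mm10, coordinates from 1), coding sequence first, then 5' UTR, 3' UTR and noncoding exon. Each peak was assigned 1 exon, with coding transcripts first and then the longest. Windows of 300 bp were centred on every 300th base of exon sequence over 1 kb from a TSS (203242 windows). Motifs were searched as letters on both strands. Intervals are exact binomial (Clopper-Pearson), or from order statistics for medians, at 95%. Functions were tested on simulated data. Python 3.11.15, numpy 2.4.6, scipy 1.17.1 and pandas 2.3.3 were used.

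Named genes were those of the 15 peaks of highest fold, the 6 host genes with most peaks, the 3 strongest per exon class, up to 4 per list, genes the study's Results name, the 5 farthest from a TSS and 3 on either side of the 1 kb limit. The members and lists were chosen with earlier results of these data known. Some genes that this rule names are not reported here. No test was run.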

Additional observations from a re-analysis of the deposited data

How the results depend on the processing

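Of 58 recomputed values, 41 stayed within the interval of the reported value, or within 1.5 times for the count. The 17 that moved include values whose direction the setting itself fixes, which this tally does not separate. With a limit of 500 bp from TSSs there were 585 exonic peaks with a mean GC content of 65.9%, of which 20.7% were near a predicted TSS. With a limit of 2 kb the GC content was 63.7%. Using predicted transcripts too, 61.3% were coding, the GC content was 62.8% and, by construction, 0% were near a predicted TSS. Keeping only folds of at least 8 left 69 peaks with a core in 55.1% and a median fold of 10.74, which is above 8 by construction. Keeping only p-values under 1e-20 left 77 peaks with a median fold of 8.56, a core in 59.7% and a GC content of 66.8%. Either filter could only lower the number of peaks. A core followed by C or T was in 26.9%, and a core within 50 bp of the midpoint in 23.6%. Within 500 bp of a predicted TSS were 3.58%. These narrower definitions of the core and of nearness could only lower the shares. Measuring distance from the peak edge, asking for 150 bp of exon, using coding transcripts alone, taking 1 peak per host gene and placing UTRs before coding sequence moved no value this far.

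No paired analysis was possible because the replicates were merged before peak calling, and leaving out a replicate was impossible for the same reason. Merged depth limits which weak peaks were called, and exon classes with few peaks have wide intervals. The weighting of windows by GC content, the GENCODE TSSs, the split by CpG-island composition and the gene families by product name were chosen after seeing the data.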
